A study of Mus musculus with 24 samples.

Results

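The genes described here are 10 members of the TGF-beta pathway: Tgfb1, Nrros, Tgfbr1, Tgfbr2, Smad2, Smad3, Smad4, Smad7, Ski and Skil. They were taken by name and are 10 of the 35519 genes to which the deposited transcripts were assigned. All 10 passed the expression filter that left 9803 genes for testing. RNA was measured in 24 libraries of microglia, macrophages that reside in the brain. Each library held 1000 cells sorted from whole mouse brain as Ly6C- CD11b+ Fcrls+. All mice were C57BL/6, and they were NL4-/-, a knockout of the synaptic adhesion protein neuroligin-4, or wild type (WT). The 4 phagocytosis groups, female NL4-/-, female WT, male NL4-/- and male WT, had 4 libraries each, and the 4 control groups of the same sexes and genotypes had 2 libraries each. The series calls these biological replicates and states 5 for a phagocytosis group, and the fifth was not analysed here. What was taken up by the cells labelled phagocytosis, how it was given, and the age of the mice are stated in none of the labels. The knocked-out gene was not analysed here, so the genotype labels were not checked against it.

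TGF-beta is secreted in a latent form. On microglia the latent form is held by the protein that Nrros encodes, and integrins of neighbouring cells release the active ligand. The ligand binds the receptor kinase Tgfbr2, which recruits and phosphorylates a second kinase, Tgfbr1. Tgfbr1 phosphorylates Smad2 and Smad3, which join Smad4 and regulate genes in the nucleus, while Smad7 blocks the receptor and Ski and Skil hold SMAD complexes in a repressed state. Microglia depend on this signal to keep the gene expression that sets them apart from other macrophages.

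Total expected reads ran from 421107 to 1013797 per library. Expression is given as CPM, reads of a gene scaled to a common library total, normalised by the trimmed mean of M values (TMM), and log2 fold changes come from 1 edgeR fit of all 24 libraries with their standard error (SE). A gene was called at an adjusted p under 0.05. The defining genes of the labelled cell type were read in every library: the 10 microglia markers summed to 17700, 25400 and 41300 CPM of the library total (lowest, median and highest) in phagocytosis libraries and to 30100, 38200 and 43100 CPM in control libraries. Each of these 10 markers had a lower mean in phagocytosis libraries. The 12 border-associated macrophage markers, of cells found at brain surfaces and vessels, all had higher means in phagocytosis libraries, with a sum of 186, 305 and 580 CPM against 57.6, 96.0 and 143 CPM in control libraries, led by Ms4a6c (123 against 55.2 CPM). The 9 monocyte markers were also all higher in phagocytosis libraries (median sum 85.8 against 36.8 CPM, led by Fn1), as were 8 of 9 neuronal markers (37.6 against 6.62 CPM, led by Uchl1), 7 of 8 astrocyte markers (102 against 101 CPM; the exception was the most abundant, Slc1a3, at 60.8 against 89.5 CPM), 5 of 8 oligodendrocyte markers (208 against 147 CPM, led by Cnp) and 4 of 8 endothelial markers (37.6 against 22 CPM, led by Pecam1, with Cldn5 at 0 reads in all libraries). For neutrophils (423 against 539 CPM, led by Csf3r) and lymphocytes (242 against 397 CPM, led by Ighm), 3 of 8 and 3 of 9 markers were higher in phagocytosis libraries. In 3 control libraries, female NL4-/- control 1, male NL4-/- control 1 and male WT control 2, transcripts resembling satellite repeats took 22.21, 21.45 and 23.29% of the reads. The part of these differences in the results below was not tested, except where a value without those libraries or transcripts is given.

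In the phagocytosis libraries 2 of the 10 genes fell and 0 rose: Tgfbr1, the receptor kinase that phosphorylates the SMADs, and Smad3, one of its substrates. Of all 9803 genes tested, 13.6% were called, 8.41% higher and 5.18% lower. The median log2 fold change was -0.20 over the 10 genes and -0.01 over all genes. Log2 fold changes of the 10 ran between -0.77 for Tgfbr1 and 0.12 for Smad7. In a bulk library fewer cells that express a gene and less of its RNA in each cell cannot be told apart. With library totals in place of TMM, 981 genes were called higher and 348 lower in phagocytosis libraries, against 824 and 508 with TMM, and the same 2 genes of the 10 were called lower.

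**Figure D1:**
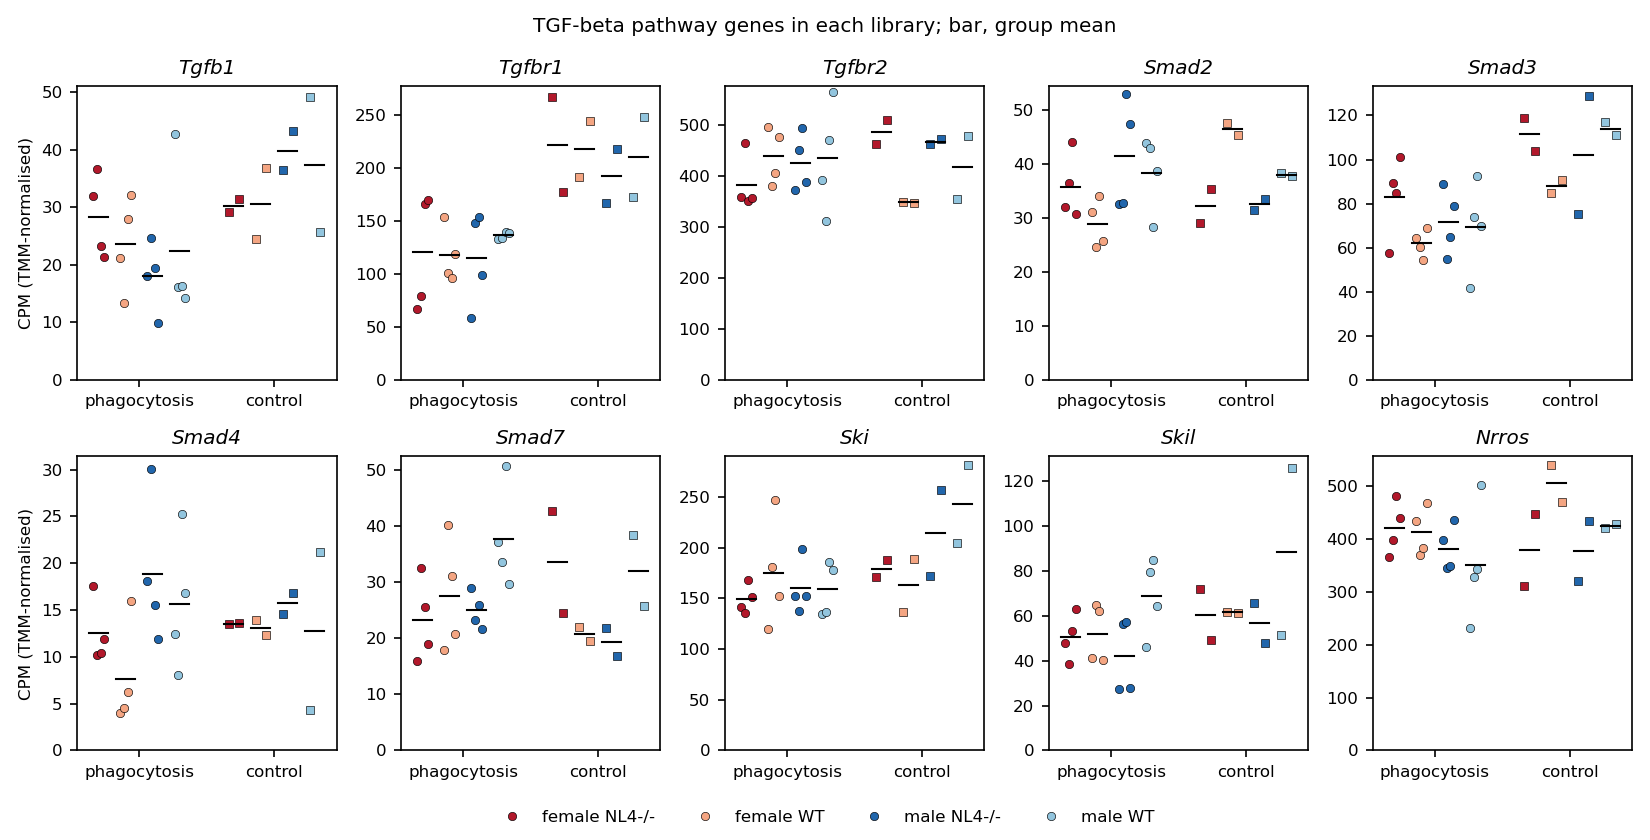
CPM (TMM-normalised, linear axes from 0) of the 10 genes in each of 16 phagocytosis and 8 control libraries, with sex and genotype in colour and each group's mean as a bar. Tgfbr1 and Smad3 sit lower in the phagocytosis libraries of each sex and genotype on average, whereas the Tgfbr2 and Nrros values of phagocytosis and control libraries lie over the same range.

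Tgfbr1 (ENSMUSG00000007613.15, chr4:47353222-47414931, plus strand, GRCm38) had 67.2, 79.3, 166 and 170 CPM in the female NL4-/- phagocytosis libraries, against 267 and 177 CPM in the female NL4-/- controls. In female WT mice it had 154, 101, 96.3 and 119 CPM in phagocytosis libraries, against 192 and 244 CPM in controls. In male NL4-/- mice it had 58.0, 148, 154 and 98.8 CPM in phagocytosis libraries, against 167 and 218 CPM in controls. Male WT mice had 133, 134, 140 and 139 CPM in phagocytosis libraries, against 173 and 248 CPM in controls. Within each sex and genotype every phagocytosis library lay below both control libraries, a pattern found in 0.449% of all genes tested. Over all libraries 0 of the 10 genes separated the states without overlap, which 0.796% of all genes did with phagocytosis above and 0.0714% with phagocytosis below. For Tgfbr1 the ranges overlapped only where male NL4-/- control 1, at 167 CPM, lay below the female NL4-/- phagocytosis library at 170 CPM. The female NL4-/- phagocytosis libraries fell into a low pair, replicates 1 and 2, and a high pair, replicates 3 and 4. Their counts over many genes paired in the same way, so the split is not particular to Tgfbr1. Chi-square per degree of freedom, a measure of how far libraries differ, was 3.06 and 2.68 within the pairs and 6.05 to 8.22 across them. The cause of the split was not tested.

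Tgfbr1 averaged 122 ± 35 CPM in phagocytosis libraries (SD, n = 16) and 211 ± 38.9 CPM in control libraries (n = 8), 0.585 times the control level in the fit (log2 fold change -0.77 ± 0.167 SE, adjusted p = 0.00265). These levels rest on 32 to 154 reads per phagocytosis library and 69 to 199 per control library. The estimates by sex and genotype lay close together, at -0.85 ± 0.332 in female NL4-/-, -0.88 ± 0.328 in female WT, -0.73 ± 0.342 in male NL4-/- and -0.63 ± 0.332 in male WT mice, each with 4 libraries against 2. None of these 4 passed alone (adjusted p = 0.371, 0.248, 0.437 and 0.647), in comparisons that called 0.459%, 0.581%, 0.602% and 0.326% of all genes. Without the 3 control libraries rich in satellite-like reads the log2 fold change of Tgfbr1 was -0.66 ± 0.208 and the call was lost, in a fit with fewer controls. With all libraries kept and only the satellite-like transcripts left out, Tgfbr1 was called (-0.76, adjusted p = 0.00287).

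Annotated transcripts of Tgfbr1 begin at a main promoter and at another promoter inside the gene. The main one opens ENSMUST00000007757.14, which held 88.5% of the gene's reads, and the internal one opens ENSMUST00000107725.2, which held 8.44%. Both are printed with the promoter of Smad3, since these are the genes that were called, as RefSeq start sites on GRCm38.p6 with 250 bases before and 50 after the start. Capitals mark matches to the SMAD binding element CAGAC, its palindrome GTCTAGAC, the GC-rich SMAD motif GGCGCC and GAGGAAG, the core bound by the myeloid factor PU.1, each searched on both strands with no overlap between matches.
Tgfbr1, main promoter (chr4:47352972-47353271, plus strand): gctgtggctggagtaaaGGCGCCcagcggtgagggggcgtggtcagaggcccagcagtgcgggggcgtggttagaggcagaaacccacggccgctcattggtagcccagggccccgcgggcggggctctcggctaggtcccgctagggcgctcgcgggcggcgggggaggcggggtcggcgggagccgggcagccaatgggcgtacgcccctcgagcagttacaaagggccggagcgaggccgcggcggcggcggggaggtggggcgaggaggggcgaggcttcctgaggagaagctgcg
Tgfbr1, internal promoter (chr4:47385966-47386265, plus strand): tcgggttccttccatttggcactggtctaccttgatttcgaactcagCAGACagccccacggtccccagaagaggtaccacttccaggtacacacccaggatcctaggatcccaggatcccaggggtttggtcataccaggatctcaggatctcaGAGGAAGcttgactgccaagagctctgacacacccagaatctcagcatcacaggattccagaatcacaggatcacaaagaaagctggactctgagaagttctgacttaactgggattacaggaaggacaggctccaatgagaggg
Smad3 promoter (chr9:63757945-63758244, minus strand): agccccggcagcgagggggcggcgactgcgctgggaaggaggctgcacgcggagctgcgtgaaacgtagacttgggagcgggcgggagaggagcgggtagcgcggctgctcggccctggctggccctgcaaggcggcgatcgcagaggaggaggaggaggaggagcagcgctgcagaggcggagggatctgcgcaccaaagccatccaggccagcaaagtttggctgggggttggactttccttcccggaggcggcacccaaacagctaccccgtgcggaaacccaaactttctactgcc
The main Tgfbr1 promoter held GGCGCC at -233 from the start, and the internal one held CAGAC at -203 and GAGGAAG at -95. The Smad3 window held none of the 4 motifs. Of 32851 mouse promoter windows of the same length, 49.6% held CAGAC, 0.213% GTCTAGAC, 11.9% GGCGCC and 13.6% GAGGAAG, and a match describes letters only.

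Smad3 (ENSMUSG00000032402.12, chr9:63646767-63757994, minus strand) had 57.6, 89.5, 84.7 and 101 CPM in female NL4-/- phagocytosis libraries, against 119 and 104 CPM in the controls. In female WT mice it had 64.2, 60.4, 54.4 and 68.9 CPM in phagocytosis libraries, against 84.8 and 90.8 CPM in controls. In male NL4-/- mice phagocytosis libraries had 88.7, 54.8, 64.7 and 79.0 CPM, against 75.2 and 129 CPM in controls. Male WT mice had 41.6, 73.9, 92.4 and 69.7 CPM in phagocytosis libraries, against 117 and 111 CPM in controls. The phagocytosis libraries lay below both controls in 3 of the 4 groups, as for 11.3% of genes in female NL4-/-, 12.6% in female WT and 8.20% in male WT mice. In male NL4-/- mice 2 of them lay above the lower control. All 16 phagocytosis libraries lay below the median control library, as they did for Tgfbr1 and for 3.17% of all genes.

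On average Smad3 had 71.6 ± 16.4 CPM in phagocytosis libraries (SD, n = 16) and 104 ± 18.8 CPM in control libraries (n = 8), 0.688 times the control level in the fit (-0.54 ± 0.14 SE, adjusted p = 0.00951). By group the log2 fold changes were -0.41 ± 0.277 in female NL4-/-, -0.50 ± 0.277 in female WT, -0.52 ± 0.289 in male NL4-/- and -0.72 ± 0.276 in male WT mice, and none passed alone (adjusted p between 0.469 and 0.703). The call was lost without male NL4-/- control 2, at 129 CPM (log2 fold change -0.39, adjusted p = 0.107). The call was also lost when only phagocytosis replicates 3 and 4 were used (-0.44, adjusted p = 0.0541) and with length-scaled counts, where the estimate was larger (-0.68, adjusted p = 0.194).

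**Figure D2:**
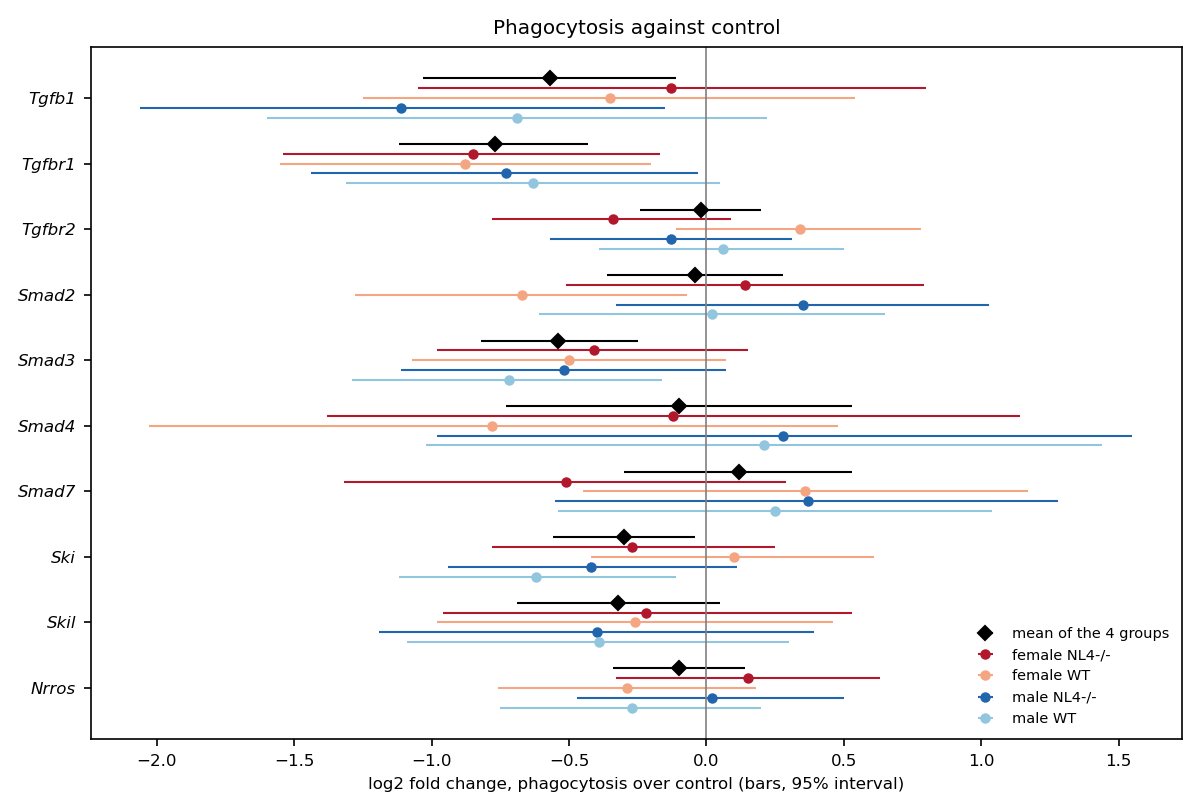
Log2 fold change of each of the 10 genes, phagocytosis over control, averaged over the 4 groups of sex and genotype (diamonds) and within each group (circles), with 95% intervals as bars. Tgfbr1 and Smad3, which were called, and Tgfb1 and Skil, which were not, have all 5 estimates below 0, Tgfbr2 and Smad2 have estimates on both sides, and the interval of Smad4 is the widest.

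Tgfb1 (chr7:25687002-25705077, plus strand), the ligand gene, had 9.88, 21.2 and 42.8 CPM (lowest, median and highest) in phagocytosis libraries, against 24.4, 33.9 and 49.1 CPM in control libraries. The groups overlapped widely, with 14 of 16 phagocytosis libraries below the control median. The means were 23.1 ± 9.09 CPM (SD, n = 16) and 34.5 ± 8.56 CPM (n = 8), and the difference did not pass (-0.57 ± 0.225, adjusted p = 0.0908). The library at 42.8 CPM was male WT phagocytosis 1, whose 3 companions had 14.2 to 16.4 CPM, and without it Tgfb1 was called lower (-0.67, adjusted p = 0.0271). The counts are low, at 5 to 38 reads in phagocytosis libraries and 13 to 30 in controls. Of the reads of the gene 54.2% were assigned to ENSMUST00000206348.1, a retained intron made of a single exon (chr7:25688890-25691462), and 41.2% to the transcript that codes for the ligand. The coding transcript alone had 10.9 ± 5.51 CPM in phagocytosis libraries and 13.7 ± 5.30 CPM in control libraries (-0.26 ± 0.374, adjusted p = 0.938 over all transcripts).

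Nrros (chr16:32142785-32165594, minus strand) had 231, 389 and 502 CPM in phagocytosis libraries, against 310, 430 and 540 CPM in control libraries. The ranges overlapped almost entirely, and the log2 fold change was -0.10 ± 0.117 with a 95% interval of -0.34 to 0.14 (adjusted p = 0.641). It was the best measured of the 10 genes beside Tgfbr2, with at least 132 reads in every library.

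Tgfbr2 (chr9:116084293-116175360, minus strand), the receptor that binds the ligand, had 312, 398 and 563 CPM in phagocytosis libraries, against 347, 461 and 508 CPM in control libraries. Both the lowest and the highest value belonged to phagocytosis libraries. The means were 420 ± 68.4 CPM (SD, n = 16) and 429 ± 66.8 CPM (n = 8), and the log2 fold change was -0.02 ± 0.108 with an interval of -0.24 to 0.20 (adjusted p = 0.947). By group it was -0.34 in female NL4-/-, 0.34 in female WT, -0.13 in male NL4-/- and 0.06 in male WT mice. In female WT mice all 4 phagocytosis libraries, at 495, 380, 405 and 476 CPM, lay above the 2 controls at 349 and 347 CPM, as for 11.5% of genes in that group, while in female NL4-/- mice 3 of 4, at 358, 351 and 357 CPM, lay below the controls at 461 and 508 CPM.

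The ratio of Tgfbr1 to Tgfbr2 reads within a library was 0.156, 0.282 and 0.476 (lowest, median and highest) in phagocytosis libraries, against 0.350, 0.503 and 0.704 in control libraries. These ratios are described with no test. For the receptors 3 phagocytosis libraries reached into the control range: female NL4-/- replicates 3 and 4 and male WT replicate 2. Smad3 to Smad2 reads gave 0.949, 1.86 and 3.27 in phagocytosis libraries, against 1.78, 2.92 and 4.08 in control libraries. Skil to Ski reads gave 0.178, 0.339 and 0.577 against 0.187, 0.353 and 0.449 in control libraries, with the medians close together.

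Tgfbr2 reads were shared by 2 coding transcripts, ENSMUST00000035014.7 with 7 exons (60.3%) and ENSMUST00000061101.11 with 8 exons (39.7%), which also runs further at its 3' end, to position 116084293 rather than 116088929. The transcript with 8 exons held 25.4, 36.6 and 49.6% of Tgfbr2 reads in phagocytosis libraries, against 43.1, 45.2 and 56.6% in control libraries. Its mean share was 36.2 ± 6.83% (SD, n = 16) and 46.9 ± 4.47% (n = 8), a difference of -10.6 percentage points that was picked out after the values were seen and is given with no test. In each sex and genotype the mean share was lower in phagocytosis libraries: 36.9 against 46.2% in female NL4-/-, 33.4 against 47.0% in female WT, 36.7 against 43.9% in male NL4-/- and 38.0 against 50.4% in male WT mice. In the test of each transcript neither passed, with -0.40 ± 0.133 (adjusted p = 0.122) for the 8-exon and 0.27 ± 0.137 (adjusted p = 0.364) for the 7-exon transcript. The split is the authors' estimate, made from reads that both transcripts can share.

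**Figure D3:**
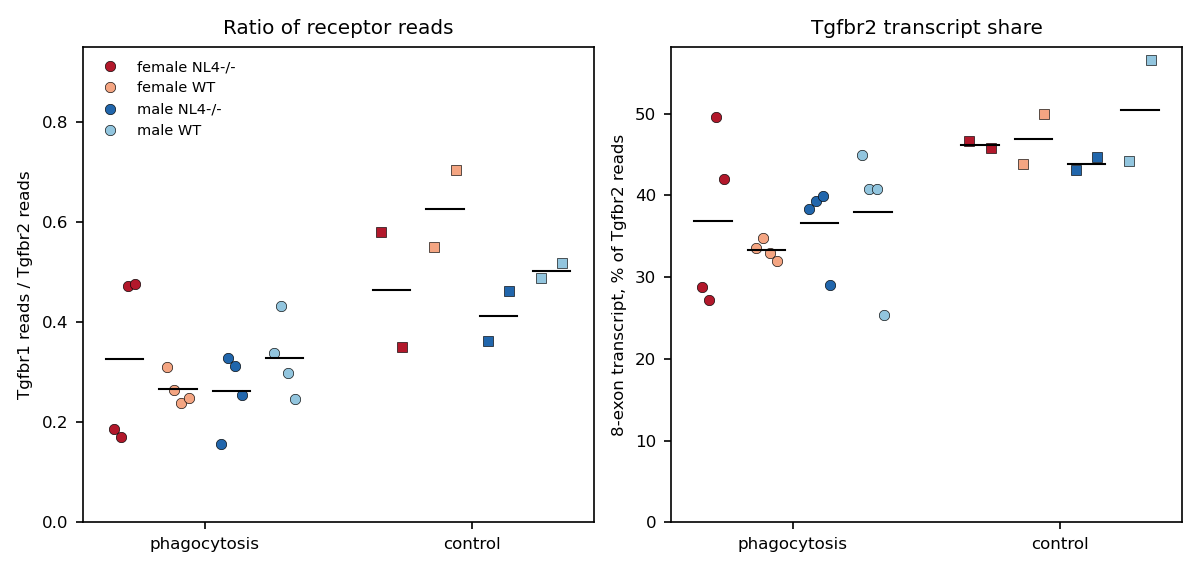
Tgfbr1 reads divided by Tgfbr2 reads (left) and the percentage of Tgfbr2 reads on the 8-exon transcript (right) in each library, phagocytosis (circles) and control (squares), with sex and genotype in colour and group means as bars. Both measures have lower group means in phagocytosis libraries in each sex and genotype, with overlap through some female NL4-/- and male WT phagocytosis libraries.

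Smad2 (chr18:76241580-76310963, plus strand), the other substrate of Tgfbr1, had 24.6, 33.5 and 53.1 CPM in phagocytosis libraries, against 29.2, 36.7 and 47.6 CPM in control libraries. The log2 fold change was -0.04 ± 0.157 (interval -0.36 to 0.28, adjusted p = 0.913). In female WT mice Smad2 had 31.1, 24.6, 34.2 and 25.7 CPM in phagocytosis libraries, below 47.6 and 45.4 CPM in controls (-0.67 ± 0.295, adjusted p = 0.344). A separation of that kind was found in 12.6% of all genes in that group, and in the other 3 groups the log2 fold changes of Smad2 lay between 0.02 and 0.35. The tests of whether its state effect differed by genotype (0.57 ± 0.314) or by sex (-0.45 ± 0.314) did not pass. Whether Smad3 and Smad2 differed from each other in their response was not tested.

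Smad4 (chr18:73639009-73703780, minus strand), the partner of both, had the fewest reads of the 10 genes. It had 2 to 22 reads in phagocytosis libraries and 2 to 14 in control libraries, which gave 4.01, 12.1 and 30.1 CPM against 4.27, 13.8 and 21.2 CPM. The difference did not pass and its interval was wide (-0.10 ± 0.307, interval -0.73 to 0.53, adjusted p = 0.882).

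Smad7 (chr18:75367529-75395935, plus strand), the inhibitory SMAD and itself induced by TGF-beta, had 16, 27.4 and 50.7 CPM in phagocytosis libraries, against 16.8, 23.3 and 42.7 CPM in control libraries (0.12 ± 0.203, adjusted p = 0.772). Group estimates ran from -0.51 in female NL4-/- to 0.37 in male NL4-/- mice, each with an interval that includes 0.

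Ski (chr4:155154075-155222592, minus strand), a corepressor of SMAD complexes, had 120, 152 and 247 CPM in phagocytosis libraries, against 137, 189 and 282 CPM in control libraries. The means were 161 ± 31.6 CPM (SD, n = 16) and 200 ± 47.4 CPM (n = 8), and Ski was not called (-0.30 ± 0.126, adjusted p = 0.116). The highest phagocytosis library, female WT 3 at 247 CPM, stood above both female WT controls, at 137 and 189 CPM, and without it Ski was called lower (-0.35, adjusted p = 0.0478). In female NL4-/- and male WT mice each phagocytosis library lay below both controls, as for 11.3% and 8.20% of genes in those groups. Of the reads of Ski 58.8% were assigned to the processed transcript ENSMUST00000129314.1 and 41.2% to its coding transcripts, among which the estimates jumped from library to library, with 8 of 16 phagocytosis and 4 of 8 control libraries holding reads of ENSMUST00000084103.9.

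Skil (chr3:31095058-31122577, plus strand), the related corepressor, had 27.2, 54.8 and 85.0 CPM in phagocytosis libraries, against 47.9, 61.5 and 126 CPM in control libraries (-0.32 ± 0.18, adjusted p = 0.263). The control value of 126 CPM came from male WT control 2. Counted on coding transcripts only, a choice made after the values were seen, Tgfbr1 and Smad3 remained the only 2 of the 10 genes called.

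Among 19229 transcripts tested, 2.92% were called and 0.520% were called lower. Of the transcripts of the 10 genes 1 was called: ENSMUST00000007757.14 of Tgfbr1, with 57.5, 112 and 162 CPM in phagocytosis libraries, against 160, 190 and 241 CPM in control libraries (-0.79 ± 0.192, adjusted p = 0.0273). The ranges met only at their edges. The call was lost without female NL4-/- control 1, female WT control 1 or 2, female WT phagocytosis 3, male NL4-/- control 1 or 2 or male WT control 2, each left out alone, and without the 3 satellite-rich control libraries together. The main Smad3 transcript, ENSMUST00000034973.9 with 96.4% of the gene's reads, fell short (-0.52 ± 0.141, adjusted p = 0.0526), and so did the Tgfbr1 transcript from the internal promoter (-0.58 ± 0.415, adjusted p = 0.593).

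Levels of different genes were compared within libraries as TPM, which divides by transcript length. A few reads assigned to a short transcript can therefore raise a gene's TPM. In male WT control 1 Smad4 had 1.9 reads and 13.1 TPM, and Smad7 had 18 reads and 12.2 TPM. The TPM of Tgfb1 and Ski also include their retained-intron and processed transcripts (54.2 and 58.8% of reads), so the order is not one of coding RNA alone. Nrros was the highest of the 10 in all 24 libraries, and Tgfbr2 was above Tgfbr1 in 23 of 24. Tgfbr1 was above Ski in 20 and Ski above Smad3 in 21 libraries. Smad3, Smad2, Tgfb1 and Skil followed with no settled order, since Smad3 was above Smad2 in 13, Smad2 above Tgfb1 in 13 and Tgfb1 above Skil in 11 of 24 libraries. Skil was above Smad4 in 20 libraries, and Smad4 and Smad7 were lowest, with Smad4 above Smad7 in 11.

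The rest of the pathway was read from 5 lists of related genes, of which 7 of 26 ligand and latency genes, 6 of 13 receptors, 27 of 34 further SMADs, adaptors and brakes, 14 of 22 SMAD-responsive genes and 31 of 31 microglia genes known to depend on TGF-beta passed the filter. Of all genes tested 8.41% rose and 5.18% fell, and the counts of each list stand beside these shares. Among ligand and latency genes 1 rose and 1 fell in phagocytosis libraries (median log2 fold change 0.10). Furin, a protease that cleaves the ligand's precursor, had 80.7 ± 18.5 CPM against 59.0 ± 17.6 CPM in control libraries (0.45 ± 0.152, adjusted p = 0.0432). Itgb5, an integrin subunit, had 601 ± 96.5 CPM against 783 ± 169 CPM (-0.37 ± 0.115, adjusted p = 0.03). The ranges overlapped for both genes, and of the 24 fits that leave out 1 library 15 called Furin and 13 called Itgb5. Furin was also not called without the 3 satellite-rich control libraries, with no expression filter or with length-scaled counts, nor was Itgb5 with library totals only, and neither was called with phagocytosis replicates 3 and 4 only (adjusted p up to 0.506 for Furin and 0.204 for Itgb5). The other TGF-beta ligands, named after their values were seen, were barely read, with 19 reads of Tgfb2 and 7 of Tgfb3 over all libraries.

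Of the other receptors 1 rose and 0 fell (median -0.02): Acvrl1, a receptor of the same family best known from endothelium, with 114 ± 32.8 CPM in phagocytosis libraries (SD, n = 16) and 74.5 ± 19.5 CPM in control libraries (n = 8; 0.61 ± 0.176, adjusted p = 0.0197). It was called in 21 of the 24 fits that leave out 1 library, and not without female WT control 2, male WT control 2 or male NL4-/- control 1, nor without all 3 satellite-rich control libraries or with length-scaled counts (adjusted p up to 0.263 over the other alternatives). Among the 27 further SMADs, adaptors and brakes 1 rose and 1 fell (median -0.09), where 8.41% of all genes rose and 5.18% fell. Dab2, an adaptor for receptor endocytosis that also binds SMADs, had 78.7, 181 and 326 CPM in phagocytosis libraries, against 15.7, 28.7 and 68.1 CPM in control libraries (2.50 ± 0.227, adjusted p = 5.41e-08). Every phagocytosis library lay above every control library, as for 0.796% of all genes, and Dab2 is also expressed by border-associated macrophages, whose markers were higher in the same libraries; their part in the result was not tested. Tgif2, a SMAD corepressor, had 12.6 ± 4.61 CPM against 22 ± 7.58 CPM in control libraries (-0.79 ± 0.24, adjusted p = 0.0243), a call held in 19 of the 24 fits with 1 library left out. It was lost without the 3 satellite-rich control libraries, with no expression filter, with length-scaled counts and with phagocytosis replicates 3 and 4 only (adjusted p up to 0.261).

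Of the SMAD-responsive genes 4 rose and 1 fell, with a median of 0.56. Id2, an inhibitor of transcription factors, had 104, 198 and 281 CPM in phagocytosis libraries, against 31.4, 67.1 and 117 CPM in control libraries (1.63 ± 0.17, adjusted p = 9.51e-08). Tgfbi, a matrix protein named for its induction by TGF-beta, had 170, 341 and 840 CPM against 53.9, 89.1 and 151 CPM in control libraries, with no overlap (2.10 ± 0.239, adjusted p = 4.13e-06). Cdkn1a, an inhibitor of the cell cycle, had 116, 240 and 360 CPM against 38.2, 67.8 and 124 CPM in control libraries (1.71 ± 0.237, adjusted p = 4.76e-05). Each of these 3 genes answers to other signals as well, and each was called in all 24 fits with 1 library left out. Ets2 was called at 0.62 ± 0.21 (adjusted p = 0.0467), in 9 of 24 such fits, and not without the 3 satellite-rich control libraries, with length-scaled counts, with phagocytosis replicates 3 and 4 only or without robust estimation (adjusted p up to 0.34). Itgb5, named above, is the one that fell. Border-associated macrophage and monocyte markers were also higher in the phagocytosis libraries, and their part in the rises on this list was not tested.

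Of the 31 microglia genes known to depend on TGF-beta, 16 fell and 1 rose in phagocytosis libraries, with a median of -0.49. Over all genes tested 5.18% fell and 8.41% rose, with a median of -0.01. Lower calls over all genes became fewer without the 3 satellite-rich control libraries, as given in the closing section. Most of the microglia markers summed above are also on this list, and the border-associated macrophage and monocyte markers were higher in the same libraries (12 of 12 and 9 of 9), whose part in these counts was not tested. Mef2a, a transcription factor, had 78.3, 109 and 138 CPM in phagocytosis libraries, against 116, 162 and 256 CPM in control libraries (-0.66 ± 0.122, adjusted p = 5e-04). Sall1, a factor of microglial identity, had 170, 241 and 350 CPM against 282, 347 and 434 CPM (-0.52 ± 0.117, adjusted p = 0.0035), and like Crybb1 it was not called with phagocytosis replicates 3 and 4 only. Mertk, a receptor for the uptake of dying cells, had 253, 341 and 476 CPM against 374, 511 and 619 CPM (-0.53 ± 0.129, adjusted p = 0.00566), and was not called without male NL4-/- control 1 or without the 3 satellite-rich control libraries (adjusted p = 0.142). Crybb1, a crystallin gene read in microglia, had 52.5, 88.9 and 174 CPM against 110, 149 and 237 CPM (-0.63 ± 0.152, adjusted p = 0.00563). The ranges of the 2 states overlapped for each of these genes. The gene that rose was Spi1, which encodes PU.1, with 182, 255 and 523 CPM in phagocytosis libraries, against 146, 183 and 218 CPM in control libraries (0.74 ± 0.148, adjusted p = 0.00117), though not with length-scaled counts (0.27, adjusted p = 0.272).

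**Figure D4:**
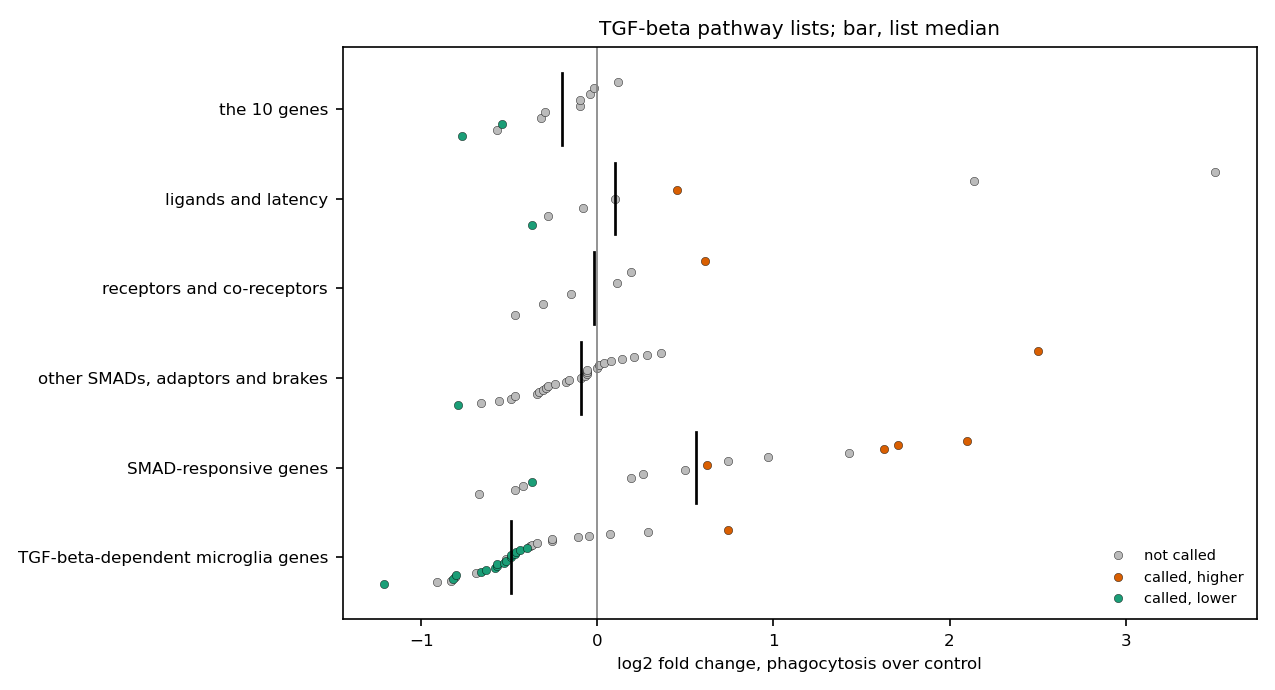
Log2 fold change, phagocytosis over control, of every gene that passed the filter in the 10-gene set and 5 related lists, each gene a point coloured by its call and each list's median a bar. Called genes of the TGF-beta-dependent list lie to the left of 0 except Spi1, and called SMAD-responsive genes lie to the right except Itgb5.

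NL4-/- against WT, as the mean of the 4 sex and state differences, called 0 of the 10 genes and 0 of 9803 genes by edgeR (0%), with 438 genes at an unadjusted p under 0.05. Among the 10, log2 fold changes lay between -0.34 for Skil and 0.32 for Smad4. Skil had 27.2, 51.2 and 71.9 CPM in NL4-/- libraries, against 40.1, 61.8 and 126 CPM in WT libraries, and its interval of -0.71 to 0.03 included 0 (unadjusted p = 0.066). Smad4 had 10.2, 14.1 and 30.1 CPM in NL4-/- libraries, against 4.01, 12.3 and 25.3 CPM in WT libraries, with an interval of -0.31 to 0.95. Among the better-read genes Tgfbr2 had 0.10 ± 0.108 (interval -0.12 to 0.32) and Nrros -0.11 ± 0.117 (interval -0.35 to 0.13), while Tgfbr1 had -0.08 ± 0.17 (interval -0.42 to 0.27). Smad3 had 54.8, 86.7 and 129 CPM in NL4-/- libraries, against 41.6, 71.8 and 117 CPM in WT libraries (0.16 ± 0.141). DESeq2 also called 0 of the 10, and 15 genes in all. Of the transcripts of the 10 genes 0 were called between genotypes, where 0.0208% of all transcripts were.

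**Figure D5:**
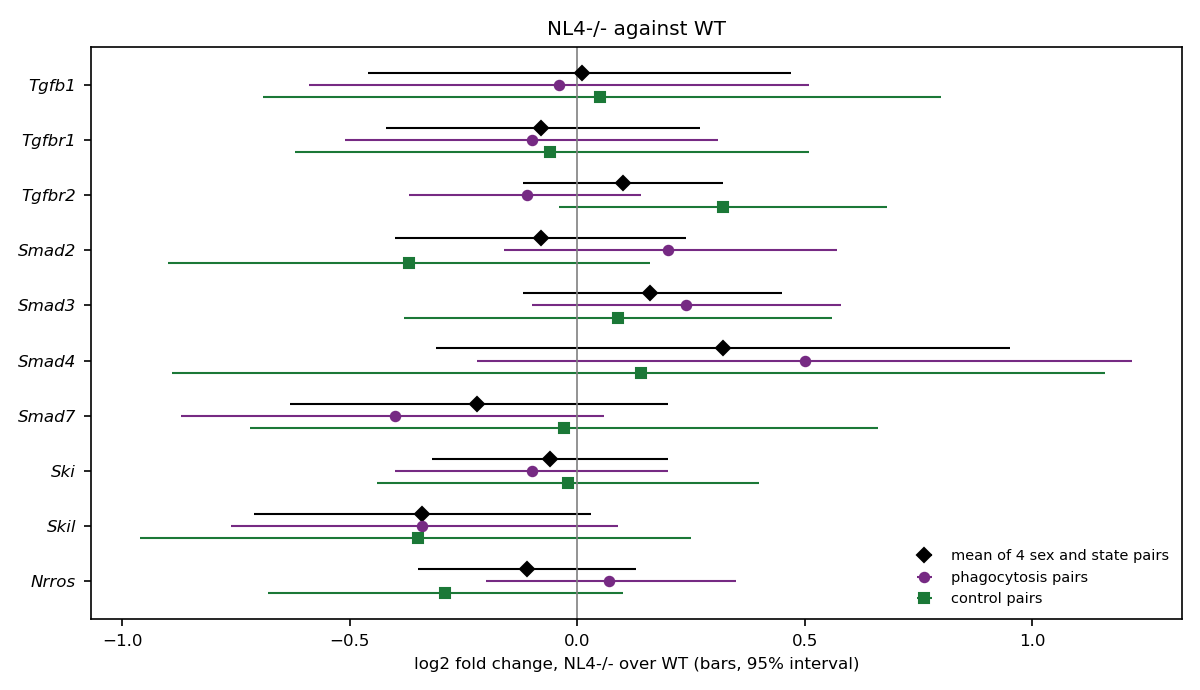
Log2 fold change of each of the 10 genes, NL4-/- over WT, as the mean of the 4 sex and state pairs (diamonds), over the phagocytosis pairs (circles) and over the control pairs (squares), with 95% intervals as bars. Every one of the 30 intervals includes 0.

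Split by state, 0 of the 10 genes were called between genotypes in the phagocytosis pairs or in the control pairs (0 genes in all in each, with 500 and 331 at an unadjusted p under 0.05). Within each sex and state the call count was also 0, among the 10 and over all genes. In male phagocytosis libraries Skil had 27.2, 56.2, 57.0 and 27.7 CPM in NL4-/- mice, against 46.1, 79.3, 85.0 and 64.5 CPM in WT mice (-0.67 ± 0.295, unadjusted p = 0.0302, adjusted p = 1). Those ranges overlapped, and in female phagocytosis libraries the log2 fold change of Skil was 0.00 ± 0.298.

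The tests of whether effects differed between groups called 0 of the 10 genes and 0 genes in all, for state by genotype, state by sex and genotype by sex, with 276, 190 and 412 genes at an unadjusted p under 0.05. By edgeR the smallest unadjusted p among these genes was for Smad7 in genotype by sex (0.86 ± 0.406, unadjusted p = 0.0407, adjusted p = 1). In male phagocytosis libraries Smad7 had 29.0, 23.3, 25.9 and 21.7 CPM in NL4-/- mice, against 37.1, 33.6, 50.7 and 29.7 CPM in WT mice, and in male controls 21.8 and 16.8 CPM against 38.4 and 25.7 CPM. In female phagocytosis libraries it had 16, 32.5, 25.5 and 19.0 CPM in NL4-/- mice, against 18, 40.3, 31.1 and 20.8 CPM in WT mice, and in female controls 42.7 and 24.6 CPM against 22.1 and 19.6 CPM. The ranges of the genotypes overlapped in female phagocytosis libraries. These values rest on 7 to 34 reads per library. For Tgfbr2 the state-by-genotype difference was -0.43 ± 0.217 (unadjusted p = 0.0541, adjusted p = 1). For Tgfbr1 and Smad3, the called genes, the state effect differed by -0.04 ± 0.339 and 0.14 ± 0.282 between NL4-/- and WT mice and by -0.18 ± 0.339 and 0.17 ± 0.283 between female and male mice, none of which passed. The genotype intervals were -0.74 to 0.66 for Tgfbr1 and -0.43 to 0.72 for Smad3, and the sex intervals -0.88 to 0.51 and -0.41 to 0.74. Between female and male mice 0 of the 10 genes were called, in a comparison that called 6 genes (0.0612%).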

How the data were processed

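Full-length complementary DNA of 1000 sorted microglia per library was made by Smart-Seq2, per the labels' protocols, which carries no molecular identifiers and does not mark strand. The authors deposited, for each of 24 libraries, 116945 transcripts with an estimated count, a TPM value and an effective length (another unit, in bases), per the file headers. The quantifier, its index and versions are not given in the sources used. Transcripts were assigned to genes with GENCODE vM21 (GRCm38): 116023 matched, and the 922 others were dropped, with 0.274 to 0.379% of the reads. The estimated counts were added up per gene and rounded. edgeR 4.0.16 (R 4.3.3, limma 3.58.1) fitted 8 group means to 24 libraries by its quasi-likelihood test, robust, with TMM factors, filterByExpr at a minimum count of 10, a prior count of 0.125 and Benjamini-Hochberg adjustment over 9803 genes or 19229 transcripts. Totals of 421107 to 1013797 reads per library limit the precision. The step was also run on counts simulated from its own fitted spread. Those counts lack the batch and cell-composition differences that real libraries can have, so the run cannot show their effect on the calls. DESeq2 1.42.0 and the other alternatives are given in the closing section.

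The 10 genes and the lists were chosen with earlier results of these data known. All 10 are named in every comparison, and of each list up to 5 genes with the smallest adjusted p among those called in phagocytosis against control. Deviations of same-numbered libraries were little correlated (at most 0.18), so no pairing was used. Promoter windows are RefSeq's (GRCm38.p6), and 6 of the 10 genes were in that table. The level of 1 marker gene is not reported here.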

Additional observations from a re-analysis of the deposited data

Results flagged for a closer look

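In 2 of 40 groups of 4 phagocytosis libraries (10 genes in 4 groups), 1 library lay far from its companions by Dixon's criterion at the 95% level. Chance gives such a library in about 1 of 20 groups. Tgfb1 had 42.8 CPM in male WT phagocytosis 1, against 14.2 to 16.4 CPM in the other libraries of that group, with a gap of 0.923 of the range. Tgfbr2 had 464 CPM in female NL4-/- phagocytosis 2, against 351 to 358 CPM in the others, with a gap of 0.941 of the range.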

How the results depend on the processing

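No log2 fold change of the 10 genes that was called changed sign under any alternative. Of the 720 comparisons of a gene with its reported value 711 stayed on the same side of the threshold, 5 became called and 4 were lost. These comparisons include NL4-/- against WT, where 0 of the 10 were called, so the 711 say little about stability. The 4 lost were of Tgfbr1 and Smad3, which alone had a call to lose. For phagocytosis against control, length-scaled counts called 1 of the 10 genes (Tgfbr1) and 880 genes. With all libraries kept and the satellite-like transcripts left out, 1336 genes were called, with Tgfbr1 (-0.76) and Smad3 (-0.52, adjusted p = 0.0111) among them. Without the 3 control libraries over 20% satellite-like reads 1 of the 10 (Smad3, -0.60, adjusted p = 0.0444), 410 genes (330 higher, 80 lower) and 0 transcripts of the 10 were called. With phagocytosis replicates 3 and 4 only, 782 genes and 0 transcripts of the 10 were called, and Tgfb1 was called lower (-0.77, adjusted p = 0.0349). With replicates 1 and 2 only, 1772 genes and 3 of the 10 were called, with Ski added (-0.44, adjusted p = 0.0306). With no expression filter and with phagocytosis replicates 1 and 2 only, 1 of the 10 was called within a sex and genotype: Tgfbr1, in female WT (-0.90, adjusted p = 0.0458) and in female NL4-/- mice (-1.54, adjusted p = 0.0205). Without the filter the 1 transcript called was another, ENSMUST00000231836.1 of Nrros, and it was higher. In the main fit that transcript was not called (adjusted p = 0.405), with 121 ± 76.6 CPM in phagocytosis and 91.4 ± 80.4 CPM in control libraries. It held reads in only 13 of 16 phagocytosis and 5 of 8 control libraries, and Nrros as a gene was not called. For NL4-/- against WT, 39 genes were called with no filter, 1 with length-scaled counts, 12 with phagocytosis replicates 3 and 4 only, 2 with replicates 1 and 2 only and 15 by DESeq2, and 0 of the 10 in each. Leaving out 1 library at a time gave 781 (without female WT control 2) to 1508 genes and 1 to 3 of the 10 for phagocytosis, 0 to 2 of their transcripts, 0 to 8 genes for NL4-/-, and 0 to 0 of the 10 in every other comparison. Where a group kept 1 control library, it was assumed to vary like the other groups. Tgfbr1 was called in all 24 of these fits (adjusted p 0.00124 to 0.0186) and Smad3 in 23. The cause of these changes was not tested.

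Correlations of the deviations of same-numbered libraries ran from -0.10 to 0.18 over 24 phagocytosis pairs and from -0.12 to 0.09 over 12 control pairs. With 2 libraries per control group the deviations mirror each other, so each control value for number 1 is repeated for number 2. These low values cannot show whether libraries with the same number share anything else. With the replicate number as a block, 1646 genes (928 higher, 718 lower) were called, 1137 of them shared with the 1332 called without it. Of the 10 genes 3 were called, with Ski added (-0.46 ± 0.123 SE, adjusted p = 0.00862), while Acvrl1 was not called. Control libraries carry only the numbers 1 and 2, so the higher numbers occur in phagocytosis libraries alone. The blocked difference between the states therefore rests largely on numbers 1 and 2 and is not an independent check. Tgfbr1 was at -0.93 with the block and also with phagocytosis replicates 1 and 2 only, where Ski was at -0.44. In NL4-/- against WT 0 genes were called with the block. Smad4, Tgfb1 and Smad7 had the fewest reads of the 10 genes.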
